A study of Mus musculus with 8 samples.

Results

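The 5 ligands of the vascular endothelial growth factor family (Vegfa, Vegfb, Vegfc, Vegfd and placental growth factor, Pgf), their 3 receptor tyrosine kinases (Flt1, Kdr and Flt4) and the 2 neuropilin co-receptors (Nrp1 and Nrp2) were followed in the cortex of mouse embryos. The genes were chosen by name from the platform annotation. All 10 were found among the 19938 genes measured, each read by 1 probe set, and the annotation gave each one a single symbol.

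Whole-transcript arrays were hybridised with brain cortex RNA of embryos at embryonic day 16, with 4 arrays of wild-type controls and 4 arrays of bitransgenic embryos. The bitransgenic embryos carry GFAP-tTA, a tetracycline-controlled transactivator under the promoter of the glial gene Gfap, together with TetO-VEGF-A164, a transgene for the A164 form of VEGF under the tetracycline operator. The labels describe the controls as wild type and lacking TetO-VEGF-A164, do not say whether any of them carried GFAP-tTA, and give a mixed strain background for both groups. VEGF-A, the transactivator and other differences of genotype therefore cannot be told apart. Doxycycline is not mentioned in the labels, and neither are litters or pooling, so each p-value reflects only the spread among these arrays, which may be technical.

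The ligands of this family are secreted dimers that drive the growth of blood and lymphatic vessels. VEGF-A binds Flt1 (VEGFR1) and Kdr (VEGFR2), the latter being the main signalling receptor of blood vessel endothelium, while Flt1 binds tightly and signals weakly and so also acts as a decoy. Among the 3 receptor tyrosine kinases, VEGF-B and Pgf bind Flt1 alone. VEGF-C and VEGF-D bind Flt4 (VEGFR3), best known from lymphatic endothelium and sprouting vessels. Neuropilins add to ligand binding and also serve as receptors of class 3 semaphorins in growing axons.

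The deposited values are logarithms, taken as log2 although no source states the base, and each probe set is centred on its median over the 8 arrays. They therefore give each gene's level relative to its own median, and the levels of different genes cannot be ranked. Presence of the labelled tissue could not be checked from marker levels for the same reason. Array medians lay between -0.0091 and 0.015. By Xist, which is transcribed from the inactive X chromosome, 1 of 4 control arrays (control 3) and 2 of 4 VEGF-labelled arrays (VEGF 2 and VEGF 3) had a female pattern. In bulk RNA, fewer cells of a type and less RNA per cell cannot be told apart.

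The promoters of 3 ligands are shown because the results turn on them: Vegfc, the ligand whose groups separated, Vegfd, the other ligand of Flt4, and Vegfa, the gene of the transgene. Each run is the 250 bases before the first listed transcription start, written 5′ to 3′ on the gene's strand, from RefSeq on GRCm38.p6. Capitals mark matches to GGGCGG on either strand, the GC box bound by Sp factors. Vegfc lies at chr8:54077282-54077531 on the plus strand, Vegfd at chrX:164373272-164373521 on the plus strand and Vegfa at chr17:46032378-46032627 on the minus strand.
Vegfc: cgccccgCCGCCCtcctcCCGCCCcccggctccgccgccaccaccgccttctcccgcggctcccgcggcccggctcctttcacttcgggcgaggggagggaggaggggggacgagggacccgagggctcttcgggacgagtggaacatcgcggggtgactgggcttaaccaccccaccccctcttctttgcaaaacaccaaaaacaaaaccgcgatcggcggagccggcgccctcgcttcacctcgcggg
Vegfd: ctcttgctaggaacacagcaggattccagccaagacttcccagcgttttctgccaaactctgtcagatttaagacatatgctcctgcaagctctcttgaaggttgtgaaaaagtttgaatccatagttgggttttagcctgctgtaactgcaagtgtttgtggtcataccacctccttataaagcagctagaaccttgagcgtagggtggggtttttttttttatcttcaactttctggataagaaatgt
Vegfa: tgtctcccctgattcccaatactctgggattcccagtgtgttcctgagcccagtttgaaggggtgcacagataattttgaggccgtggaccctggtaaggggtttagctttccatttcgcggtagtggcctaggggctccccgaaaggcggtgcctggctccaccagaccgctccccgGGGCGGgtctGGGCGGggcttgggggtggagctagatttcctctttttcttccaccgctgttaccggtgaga
The windows of Vegfc and Vegfa each held 2 GC boxes, and 32.7% of 32851 promoter windows of the same length held at least 1. GC boxes were also in the first windows, not shown, of Vegfb (4), Pgf (2), Flt1 (3), Kdr (2), Flt4 (3), Nrp1 (1) and Nrp2 (5). The Vegfd window held 0 GC boxes, and its share of G and C was 42.4%, against 71.6% for Vegfc and 59.2% for Vegfa. The median share over all windows was 52.4%. The hypoxia-inducible factor core ACGTG and the ETS sequence AGGAAG, searched on both strands, were in none of the 3 windows shown. Of all windows, 16.6% and 29.5% held them. The window of a second listed Vegfa start, not shown, held ACGTG 1 time. These matches describe letters in a short window.

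Vegfa, the gene of the transgene, had overlapping values in the groups. Its values were -0.10, 0.036, -0.12 and 0.026 in control 1 to 4, and 0.059, 0.078, -0.026 and -0.055 in VEGF 1 to 4. VEGF 1 and VEGF 2 lay just above all controls and VEGF 3 and VEGF 4 within the control range. Control arrays averaged -0.039 ± 0.081 and VEGF-labelled arrays 0.014 ± 0.064 (SD, n = 4 each). The difference was 0.053 with an SE of 0.0506 (adjusted p = 0.748 in limma), and by exact permutation, two-sided, p = 0.343. The 95% interval of the difference ran from -0.061 to 0.17, or 0.959-fold to 1.12-fold if the base is 2. No source used here says whether this 1 probe set reads transcripts of the transgene, so Vegfa is no check of the genotype, and "VEGF-labelled" is used for the second group.

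**Figure D1:**
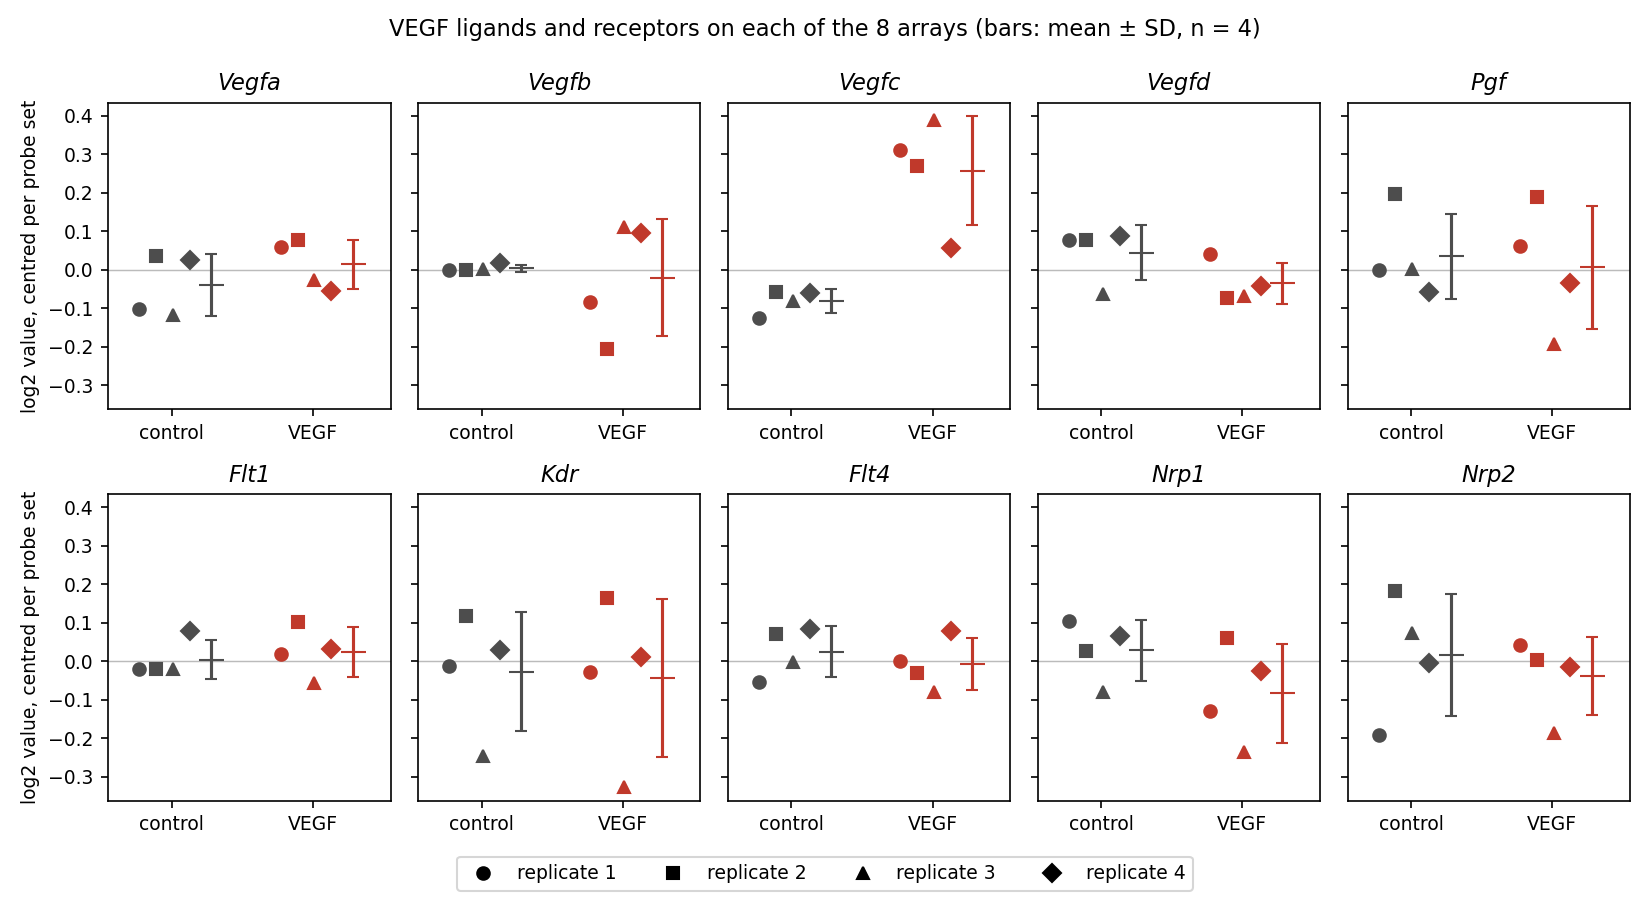
Log2 values, centred per probe set, of the 10 genes on each of the 8 arrays, control in grey and VEGF-labelled in red, with a marker shape for each replicate number and bars for the mean ± SD (n = 4). Vegfc is the 1 gene whose 4 VEGF-labelled arrays all lie above its 4 control arrays.

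Vegfc, the lymphangiogenic ligand of Flt4, was the 1 gene of the 10 whose groups did not overlap. Its values were -0.12, -0.058, -0.080 and -0.059 in control 1 to 4, and 0.31, 0.27, 0.39 and 0.058 in VEGF 1 to 4. The first 3 VEGF-labelled arrays stood well above control, while VEGF 4 was the nearest to it. Control arrays averaged -0.080 ± 0.031 and VEGF-labelled arrays 0.26 ± 0.14 (SD, n = 4 each). The difference was 0.34 with an SE of 0.0653, or 1.26-fold, and its 95% interval, not adjusted for the number of genes, ran from 0.19 to 0.48. In size this difference stood at percentile 98.8 of all genes.

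The Vegfc difference did not pass the test over all genes, with an adjusted p of 0.243 in limma. Its unadjusted limma p was 0.000569, which ranked 30 among 19938 genes. Exact two-sided permutation gave p = 0.0286, the smallest that 70 arrangements of 4 against 4 arrays allow. Without VEGF 4 the difference was 0.40 and passed, with an adjusted p of 0.035 in limma, and 10 genes passed in all. Over 22 alternatives the difference lay between 0.26 and 0.40, always higher in the VEGF-labelled arrays, and the adjusted p between 0.035 and 0.616. Several of these alternatives could not change the difference or, where 1 array was left out, its direction.

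**Figure D2:**
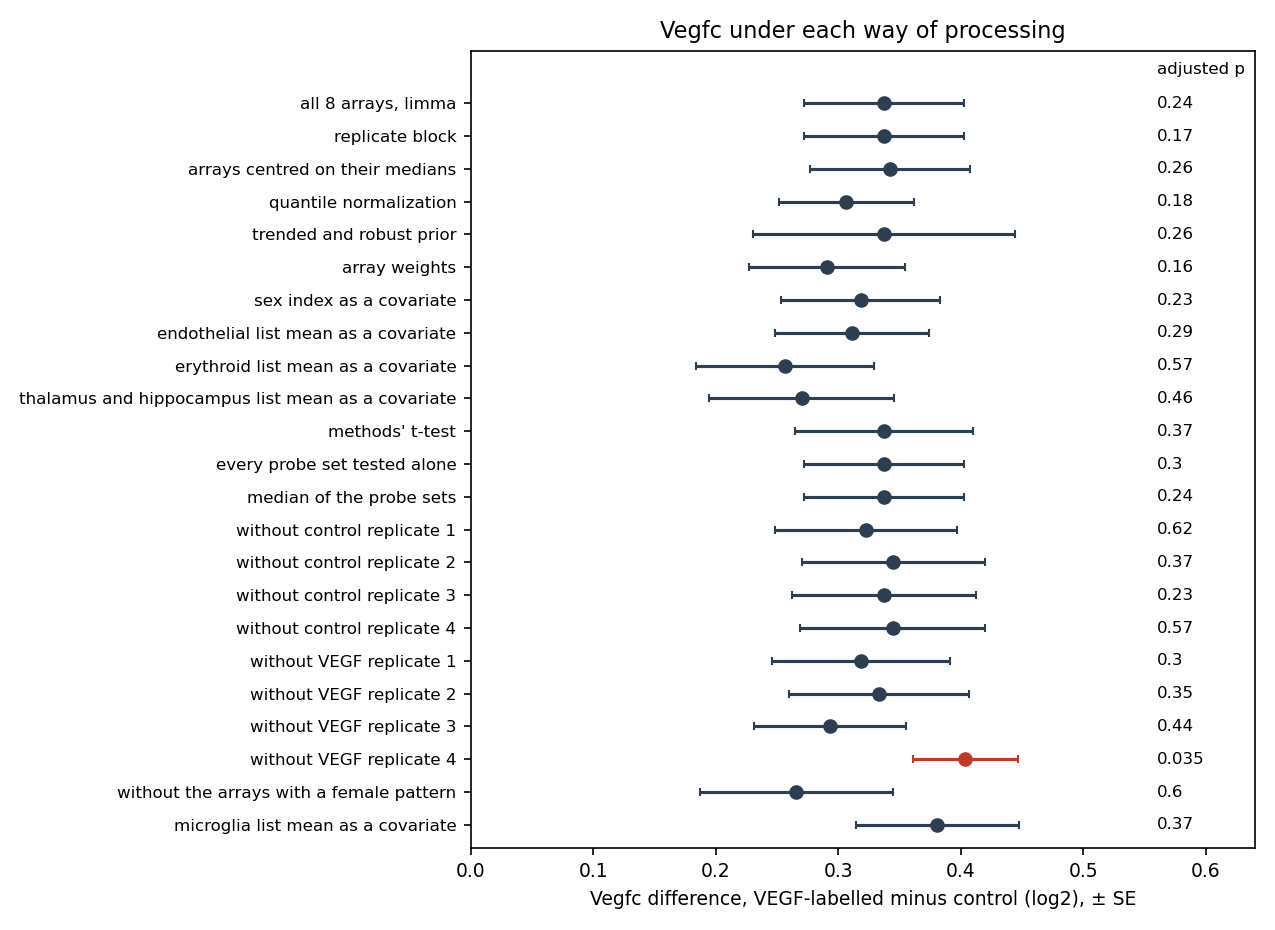
Vegfc difference, VEGF-labelled minus control, on the log2 scale with its SE, for all 8 arrays and for each alternative, with the adjusted p at the right. All points lie between 0.26 and 0.40, and the 1 in red, without VEGF 4, passed an adjusted p of 0.05.

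The means of the erythroid, the thalamus and hippocampus, and the microglia and macrophage markers overlapped between the groups and were highest in VEGF-labelled arrays. Choroid plexus markers, of another neighbouring tissue, were highest in a control array. For 9 of them the mean lay between -0.065 and 0.25 in control and between -0.19 and 0.15 in the VEGF-labelled arrays. The mean of 14 erythroid markers lay between -0.11 and 0.016 in control and between -0.023 and 0.52 in the VEGF-labelled arrays. The mean of 12 thalamus and hippocampus markers lay between -0.30 and 0.20 in control and between -0.16 and 0.58 in the VEGF-labelled arrays. With the erythroid mean as a covariate the Vegfc difference was 0.26 (adjusted p = 0.573 in limma), and with the thalamus and hippocampus mean it was 0.27 (adjusted p = 0.459 in limma). The mean of 16 microglia and macrophage markers lay between -0.15 and 0.069 in control and between -0.034 and 0.13 in the VEGF-labelled arrays, and with it as a covariate the Vegfc difference was 0.38 (adjusted p = 0.371 in limma).

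Vegfd, the other ligand of Flt4, lay on the opposite side of control from Vegfc. Its values were 0.076, 0.077, -0.062 and 0.088 in control 1 to 4, and 0.042, -0.074, -0.069 and -0.042 in VEGF 1 to 4. All 4 VEGF-labelled arrays lay below control 1, 2 and 4, but control 3 lay among them. The difference was -0.080 with an SE of 0.0460 (adjusted p = 0.530 in limma), its 95% interval ran from -0.18 to 0.024, and the exact permutation test gave p = 0.0857.

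Vegfb, which binds Flt1 and is known from the heart and other metabolically active tissue, differed in spread rather than in mean. Its values were between -0.0016 and 0.017 in the 4 control arrays. They were -0.084 and -0.21 in VEGF 1 and VEGF 2, and 0.11 and 0.096 in VEGF 3 and VEGF 4. The VEGF-labelled arrays thus lay on both sides of all 4 controls, and their SD was 0.15 against 0.0088 in control. The difference of the means was -0.024 with an SE of 0.0680 (adjusted p = 0.935 in limma).

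Pgf, the placental growth factor, which also binds Flt1, spread alike in both groups. Its values were -0.00071, 0.20, 0.00071 and -0.057 in control 1 to 4, and 0.061, 0.19, -0.19 and -0.035 in VEGF 1 to 4. Replicate 2 of each group was highest and VEGF 3 was lowest. The difference was -0.029 with an SE of 0.0842 (adjusted p = 0.936 in limma) and a 95% interval from -0.22 to 0.16.

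None of the 3 receptor tyrosine kinases separated the groups. Flt1, the decoy-like receptor, had values of -0.020, -0.021, -0.020 and 0.079 in control 1 to 4, and 0.020, 0.10, -0.058 and 0.033 in VEGF 1 to 4. The VEGF-labelled arrays lay on both sides of control 1 to 3, and the difference was 0.020 with an SE of 0.0437 (adjusted p = 0.911 in limma). Its 95% interval from -0.079 to 0.12 corresponds to 0.947-fold to 1.09-fold.

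Kdr, the main receptor of VEGF-A, varied more between arrays than the other receptors. Its values were -0.012, 0.12, -0.25 and 0.030 in control 1 to 4, and -0.027, 0.17, -0.33 and 0.012 in VEGF 1 to 4. Replicate 3 of each group was low and replicate 2 was high, so that the groups covered the same range. The difference was -0.016 with an SE of 0.108 (adjusted p = 0.975 in limma). Its 95% interval from -0.26 to 0.23 leaves room for 0.835-fold to 1.17-fold, and the spread of Kdr within groups stood at percentile 94.4 of all genes.

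Flt4, the receptor of VEGF-C and VEGF-D, had values of -0.055, 0.072, -0.0016 and 0.085 in control 1 to 4, and 0.0016, -0.030, -0.080 and 0.079 in VEGF 1 to 4. The groups overlapped along nearly their whole range. The difference was -0.032 with an SE of 0.0473 (adjusted p = 0.855 in limma) and a 95% interval from -0.14 to 0.075.

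The neuropilins lay slightly lower in the VEGF-labelled arrays, within the spread of the arrays. Nrp1, a co-receptor of VEGF-A and receptor of Sema3a, had values of 0.10, 0.026, -0.081 and 0.065 in control 1 to 4, and -0.13, 0.059, -0.24 and -0.026 in VEGF 1 to 4. VEGF 1 and VEGF 3 lay below all controls, VEGF 2 and VEGF 4 among them, and the difference was -0.11 with an SE of 0.0675 (adjusted p = 0.559 in limma). Its 95% interval ran from -0.26 to 0.041. Nrp2, which binds VEGF-C and Sema3f, had values of -0.19, 0.18, 0.073 and -0.0038 in control 1 to 4, and 0.042, 0.0038, -0.19 and -0.015 in VEGF 1 to 4. All 4 VEGF-labelled arrays lay within the control range, and the difference was -0.054 with an SE of 0.0814 (adjusted p = 0.860 in limma).

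**Figure D3:**
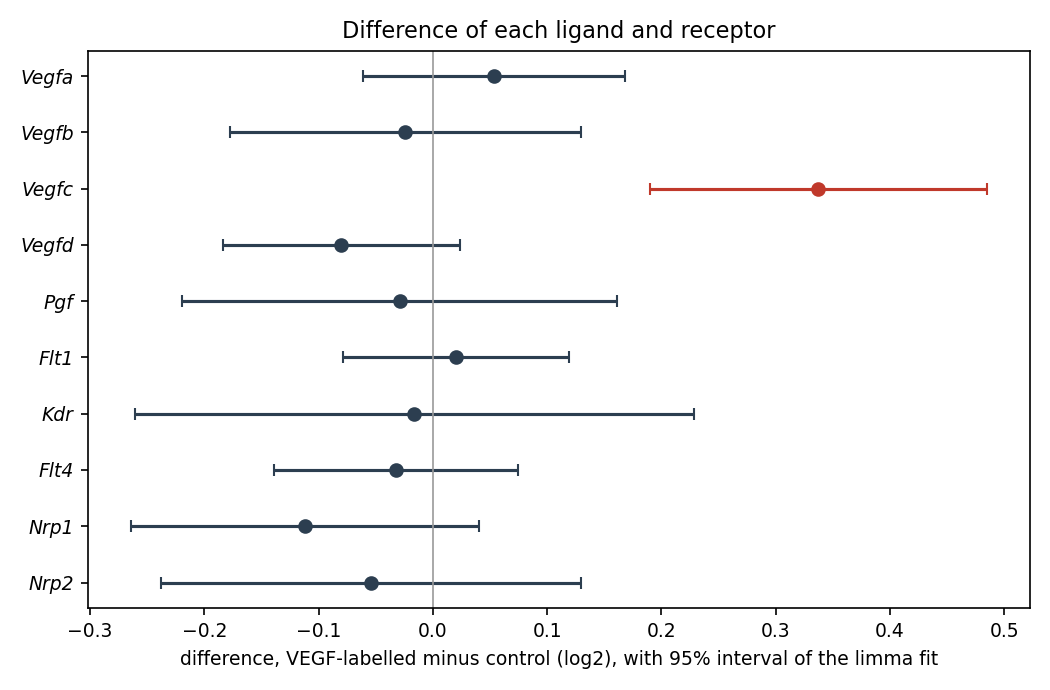
Difference, VEGF-labelled minus control, of each of the 10 genes on the log2 scale, with the 95% interval of the limma fit, in red where the groups did not overlap. The interval of Vegfc, from 0.19 to 0.48, is the 1 that does not include 0, before adjustment over all genes.

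Of the 10 genes, 3 were higher and 7 were lower, with a median difference of -0.027, against 43.3% higher, 56.7% lower and a median of -0.010 over all 19938 genes. The test over all genes was passed by 0 of the 10, and by 0% of all genes. At an unadjusted limma p under 0.05 there was 1 of the 10, Vegfc, against 12.5% of all genes (4.62% higher and 7.84% lower). Without overlap of the groups there was also 1, again Vegfc, against 6.84% of all genes (2.13% higher and 4.71% lower). A count of 1 in a family of 10 is close to these backgrounds. Precision is limited by the small number of arrays. For the 9 genes other than Vegfc the unadjusted intervals include 0, and changes inside those intervals are not excluded. The intervals are not detection limits, since Vegfc, whose interval leaves out 0, did not pass over all genes.

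The 2 arrays in which endothelial markers were lowest were also those in which Kdr was lowest. The mean of 22 endothelial markers, the members left out, was -0.14 in control 3 and -0.20 in VEGF 3, and between -0.0015 and 0.14 in the other 6 arrays. Across the 8 arrays Kdr went with this mean with a Pearson correlation of 0.882 (p = 0.0091 by exact permutation, adjusted over 10 relations p = 0.091). The Spearman correlation was 0.667 (p = 0.083 by exact permutation, adjusted p = 0.321). Leaving out control 3 and VEGF 3, which were farthest from the median marker level, gave r = 0.229, so the relation rests on those arrays. Nrp1, which endothelium and neurons both express, gave r = 0.760 (p = 0.030 by exact permutation, adjusted p = 0.152) and rho = 0.714 (p = 0.058 by exact permutation, adjusted p = 0.321). Without the same arrays r was 0.282. None of the 10 relations of a member with the endothelial mean passed after adjustment.

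Kdr was also set against each of the 11 cell type lists, and the endothelial list did not have the highest correlation. With 13 meningeal and fibroblast markers the Pearson correlation was 0.954 (p = 0.00064 by exact permutation, adjusted over 11 lists p = 0.0071) and the Spearman correlation 0.833 (p = 0.015 by exact permutation, adjusted p = 0.169). Without control 3 and VEGF 3 that r was 0.790. Pericyte and smooth muscle markers gave r = 0.906 (p = 0.0049 by exact permutation, adjusted p = 0.018) and rho = 0.643 (p = 0.096, adjusted p = 0.212), with r = 0.324 without the same arrays. Over these 11 lists the adjusted p of the endothelial r was 0.025, that of the lymphatic r of 0.870 was 0.016 and that of the oligodendrocyte precursor r of 0.819 was 0.025, by exact permutation. No Spearman correlation passed after adjustment. Kdr was the 1 member set against all 11 lists, and it had the highest r of the 10 members with the endothelial mean. The adjustment over 11 lists does not count that choice among members, so these adjusted p-values describe Kdr and test no prior expectation. Some of the lists share a gene. Prox1 is in the lymphatic and in the thalamus and hippocampus list. Cspg4 is in the pericyte and smooth muscle and in the oligodendrocyte precursor list. The lymphatic list was drawn from Prox1, Lyve1, Pdpn, Ccl21a, Reln and Mmrn1, of which 5 were measured. Which cells the list means read in this cortex was not tested.

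**Figure D4:**
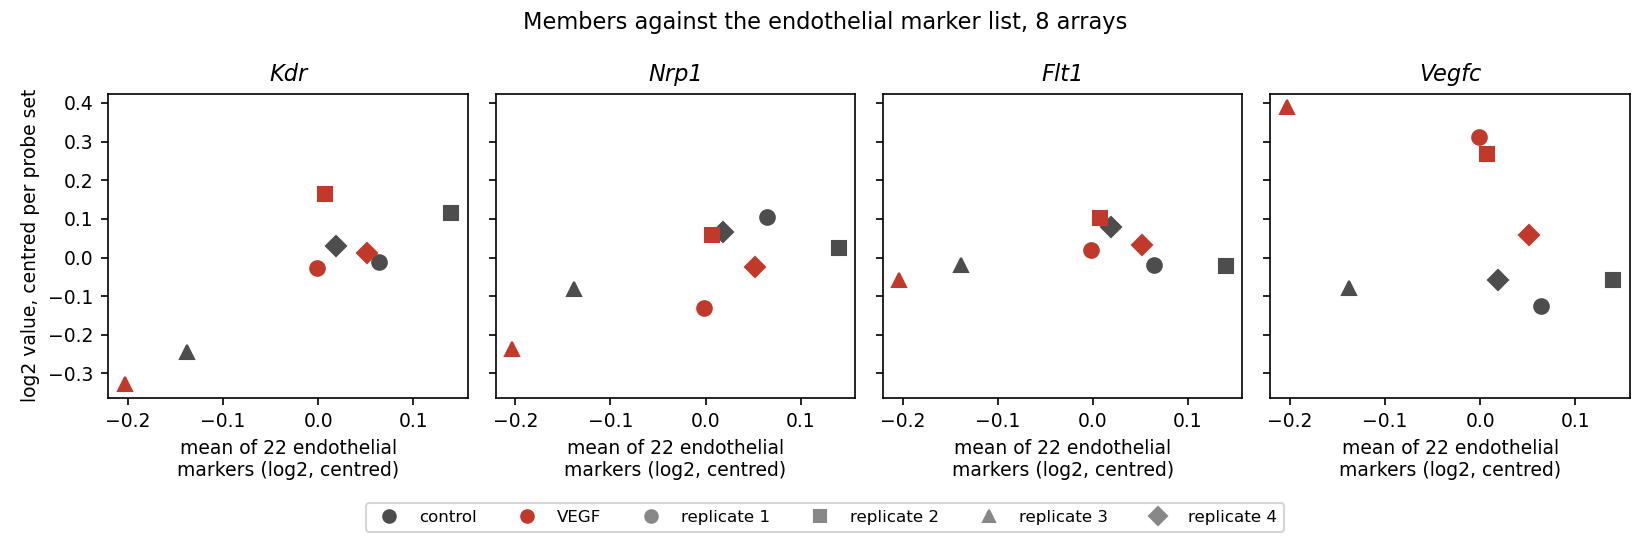
Values of Kdr, Nrp1, Flt1 and Vegfc on each array (log2, centred) against the mean of 22 endothelial markers on that array, with colour for the group and shape for the replicate number. Control 3 and VEGF 3, at -0.14 and -0.20 on the horizontal axis, have the lowest Kdr, at -0.25 and -0.33.

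Endothelial markers as a list did not separate the groups. Of the 22 measured, 18 were lower (56.7% of all genes were) and 4 higher, with a median difference of -0.045. An unadjusted limma p under 0.05 was found for 2, or 9.09% against 12.5% of all genes, and 0 passed over all genes. Pecam1, an adhesion molecule of endothelial junctions, differed by 0.015 (adjusted p = 0.961 in limma), the endothelial cadherin Cdh5 by -0.064 (adjusted p = 0.859 in limma) and the tight junction protein Cldn5 by -0.24 (adjusted p = 0.526 in limma). Of 14 pericyte and smooth muscle markers, which mark the cells that ensheath vessels, 0 had an unadjusted limma p under 0.05 and 0 passed over all genes. Of 5 lymphatic markers 1 had an unadjusted p under 0.05, and 0 passed, where 12.5% of all genes had such a p. With the endothelial mean as a covariate Kdr differed by 0.066 (adjusted p = 0.778 in limma).

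The genes with the array pattern most like that of a member were found by Pearson's r over the 8 arrays among 18605 genes, and were picked for that r. For Vegfc they were Lrp4, a receptor of agrin (r = 0.987), the heme-degrading enzyme Hmox1 (r = 0.964) and the Ran-binding protein Ranbp1 (r = 0.962), which differed by 0.37, 0.68 and 0.17. A shift between the groups is part of these likenesses. For Kdr they were Paqr9 (r = 0.978), Cd93, a surface protein of endothelium (r = 0.973), and the flippase subunit Tmem30a (r = 0.969), which differed by -0.050, -0.010 and -0.025. For Vegfa they were Tm4sf5 (r = 0.964), the neuromedin U receptor Nmur2 (r = 0.956) and Morc1 (r = 0.950). None of these 9 genes passed over all genes.

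Other genes of the pathway were read in 5 lists, and 0 genes of any list passed over all genes, with all 8 arrays or in any of 20 alternatives. Among 33 measured genes of VEGF signal transduction, 24 were lower (56.7% of all genes were) and 9 higher, with a median of -0.052. An unadjusted limma p under 0.05 was found for 10 of them, 30.3% against 12.5% of all genes, 6 lower and 4 higher. The count was 5 without control 1 (15.2% against 7.65% of all genes in the same fit), and 6 without control 4 or VEGF 3 (18.2% against 8.16% and 9.57%). It was also 5 with the thalamus and hippocampus mean as a covariate (15.2% against 10.4%), and 6 with the endothelial mean (18.2% against 10.6%). Over 20 alternatives the count lay between 5 and 11, and in 0 of them was the share below that of all genes. Plcg1, the phospholipase that Kdr recruits, had values between 0.031 and 0.12 in control and between -0.12 and -0.031 in the VEGF-labelled arrays, a difference of -0.16. Shb, an adaptor that also binds Kdr, had values between 0.021 and 0.19 in control and between -0.32 and -0.021 in the VEGF-labelled arrays, a difference of -0.32. In both genes the groups did not overlap and VEGF 4 was nearest to control. The scaffold Iqgap1 differed by 0.19, without overlap, and the adaptor Nck1 by 0.29, with VEGF 4 inside the control range (adjusted p = 0.243 in limma for each of these 4 genes). Many of these genes serve other receptors as well.

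Neuropilin partners, the class 3 semaphorins and plexin-A receptors with L1cam, included 10 of 12 genes that were lower (56.7% of all genes were). The list's median was -0.11. An unadjusted p under 0.05 was found for 6 of the 12, 5 lower and 1 higher, or 50.0% against 12.5% of all genes. Plxna4, which signals for Sema3a with Nrp1, had values between 0.046 and 0.32 in control and between -0.40 and -0.046 in the VEGF-labelled arrays, a difference of -0.43. Plxna2 differed by -0.34 with VEGF 4, at 0.015, inside the control range (adjusted p = 0.243 in limma for both). Sema3d differed by 0.15 (adjusted p = 0.375 in limma) and Plxna1 by 0.043 (adjusted p = 0.902 in limma). The count of 6 was 2 without control 1 (16.7% against 7.65% of all genes in the same fit) and with the methods' t-test (16.7% against 10.6%). It was 3, or 25.0%, without control 4 (against 8.16%) or VEGF 1 (against 13.6%). Plexins and semaphorins are expressed in neurons. Of 16 cortical neuron and progenitor markers 11 were lower (56.7% of all genes were) and 5 higher. Their list means lay between -0.041 and 0.094 in control and between -0.21 and 0.047 in the VEGF-labelled arrays. An unadjusted limma p under 0.05 was found for 4 lower and 2 higher markers, or 37.5% against 12.5% of all genes. Groups did not overlap for 2 lower and 2 higher markers, or 25% against 6.84% of all genes (4.71% lower and 2.13% higher). The part of neuronal RNA in the plexin values was not tested.

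Genes that process or bind VEGF ligands had 11 of 18 lower, where 56.7% of all genes were, and a median of -0.038. An unadjusted p under 0.05 was found for 4 of the 18, 22.2% against 12.5% of all genes. That count was 2, or 11.1%, without control 1, control 4 or VEGF 2, where 7.65%, 8.16% and 10.8% of all genes had such a p. It was also 2 with the methods' t-test (against 10.6%) and with the microglia mean as a covariate (against 11.4%). Over 20 alternatives the count lay between 2 and 7, and in 1 of them the share was below that of all genes. Adamts3, the protease that activates VEGF-C, had values of 0.70, -0.046, 0.034 and 0.67 in control 1 to 4, and -0.59, -0.39, -0.14 and 0.17 in VEGF 1 to 4. Control 1 and control 4 stood far above the other controls, and VEGF 4 lay among the controls. The difference was -0.58 with an SE of 0.212 (adjusted p = 0.333 in limma). Thbs1, a matrix protein that inhibits angiogenesis, differed by -0.50 (adjusted p = 0.243 in limma), with control 1 and control 4 again highest, at 0.59 and 0.67. Hspg2, the proteoglycan perlecan that binds VEGF-A, and the plasminogen activator Plau each differed by 0.16 without overlap (adjusted p = 0.260 and 0.364 in limma).

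VEGF-induced and tip cell genes showed no common direction, with 17 of 30 higher, where 43.3% of all genes were. The median was 0.013 and lay between -0.027 and 0.040 over the alternatives. An unadjusted p under 0.05 was found for 3 of the 30, or 10%, against 12.5% of all genes. Over 20 alternatives this count lay between 1 and 7, and in 16 of them the share was below that of all genes. The count of 7 came without VEGF 4 (23.3% against 14.4% in the same fit). Hey2, a Notch target of arteries, differed by 0.20 without overlap (adjusted p = 0.262 in limma). Esm1, a tip cell gene known to respond to VEGF-A, had values between -0.16 and 0.0097 in control, and of 0.17, 0.31, 0.17 and -0.037 in VEGF 1 to 4, a difference of 0.22 (adjusted p = 0.293 in limma). VEGF 4 was again the array within the control range. Plxnd1, an endothelial semaphorin receptor, differed by -0.18 (adjusted p = 0.397 in limma) and the immediate early gene Egr3 by -0.081 (adjusted p = 0.571 in limma).

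Hypoxia regulators that act upstream of Vegfa were lower in 12 of 15 genes, where 56.7% of all genes were, with a median of -0.066. An unadjusted p under 0.05 was found for 1 of the 15, 6.67% against 12.5% of all genes. That count was 3, or 20%, without control 3 or VEGF 4 (against 13.3% and 14.4% of all genes in the same fits), and 0 without control 1, control 4, VEGF 1, VEGF 2 or VEGF 3 (against 7.65% to 13.6%). Hif1a, the oxygen-regulated subunit of the hypoxia-inducible factor, differed by 0.024 (adjusted p = 0.877 in limma) and the RNA-binding Elavl1 by 0.045 (adjusted p = 0.772 in limma). The related subunit Epas1 (HIF-2 alpha), which endothelium expresses, differed by -0.17 (adjusted p = 0.425 in limma), with the lowest value, -0.28, in VEGF 3. Arnt2, a neuronal partner of these factors, differed by -0.14 (adjusted p = 0.383 in limma).

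**Figure D5:**
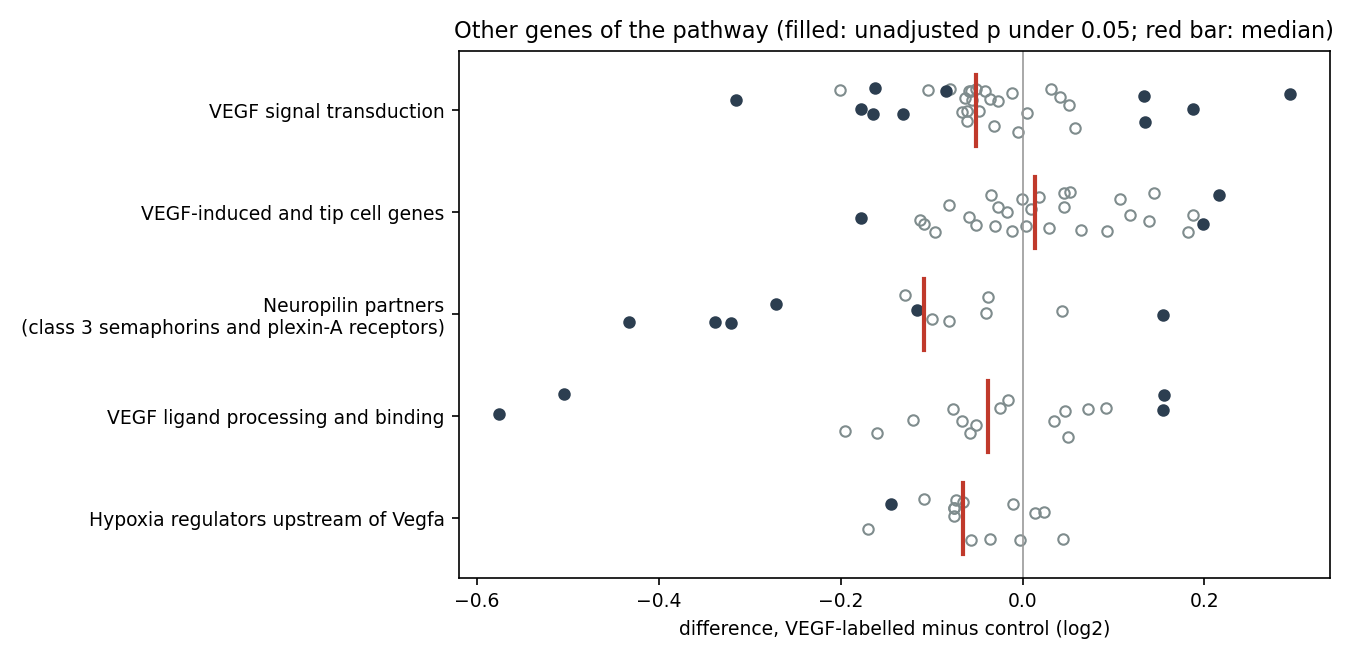
Difference, VEGF-labelled minus control (log2), of each gene in the 5 pathway lists, filled where the unadjusted limma p was under 0.05, with a red bar at the list's median. The medians lie between -0.11 for the neuropilin partners and 0.013 for the VEGF-induced and tip cell genes.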

How the data were processed

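RNA was extracted with a Qiagen kit and 120 ng was converted with the Ambion WT Expression kit, per the labels' protocols. Affymetrix Expression Console and build mm8 were used, per the submitters' processing notes. How background and probes were combined is not stated in the sources used here. The authors deposited log-scale values, read as log2, for 28853 probe sets with 0 missing values, each centred on its median over the 8 arrays (within 5e-07), so no filter on dim probe sets was possible.

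Of the probe sets, 21789 had 1 symbol, 1621 several and 5443 were unnamed here, by the platform annotation. Symbols were updated by Entrez identifier (21698 found in RefSeq, GRCm38.p6), and several probe sets of 1 gene were averaged, giving 19938 genes. Groups came from the sample titles. limma 3.58.1 (R 4.3.3), without covariates, was fitted to all genes and tested on simulated data, with Benjamini-Hochberg adjustment and a threshold of 0.05. Single genes were also compared by exact permutation.

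The members and lists were chosen with earlier results of these data known. All 10 members were named whatever their values, from each pathway list the 2 genes of smallest p in each direction, and for Vegfa, Vegfc and Kdr the 3 genes of most similar pattern. The relations to the cell type lists and the motifs were chosen after the data were seen. Alternatives were a replicate block, other scalings and priors, array weights, covariates, the methods' t-test, probe sets alone, and each array left out.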

Additional observations from a re-analysis of the deposited data

Results flagged for a closer look

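Among 20 groups of 4 arrays (10 genes in 2 groups), 3 had 1 array far from the others by Dixon's criterion, where chance gives about 1 in 20 groups. Vegfb was at 0.017 in control 4, while the nearest control was at 0.00082. Vegfd was at -0.062 in control 3, with the nearest control at 0.076. Flt1 was at 0.079 in control 4, with the nearest control at -0.020. The deviation of Vegfb is small beside the 0.32 that its 8 arrays spanned.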

How the results depend on the processing

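The direction of Vegfc, Vegfd and Nrp1 held in all 22 alternatives, but not all of these could change it. The replicate block, the other prior, the methods' t-test and the probe set settings left every member's difference the same. This follows from groups of 4 arrays each and 1 probe set per member. Leaving out 1 array could not reverse Vegfc either, since its groups did not overlap. The count of members past the threshold lay between 0 and 1 and that of all genes between 0 and 10 when 1 array was left out, both highest without VEGF 4, and was 0 in every other alternative. Vegfa kept its direction in 22 of 23 alternatives, which include the exact permutation test and the settings that could not change it. The Vegfa difference was at -0.013 with the mean of thalamus and hippocampus markers as a covariate.

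Small differences changed sign, with no adjusted p under 0.05. Kdr was at 0.029 with quantile normalization, 0.021 with the sex index, 0.066 with the endothelial mean and 0.0097 with the erythroid mean as covariates, and between -0.089 and 0.078 with 1 array left out (0.032 without control 2, 0.0031 without control 4, 0.078 without VEGF 3). Vegfb was at 0.012 with array weights, 0.0041 with the erythroid and 0.077 with the thalamus and hippocampus mean, 0.0016 without the arrays of a female pattern, and between -0.068 and 0.038 with 1 array left out. Pgf was at 0.016 with the endothelial mean and between -0.090 and 0.037 with 1 array left out (0.025 without control 2, 0.037 without VEGF 3). Flt1 was at -0.0097 with array weights and between -0.0062 and 0.047 with 1 array left out. Without the arrays of a female pattern Flt4 was at 0.0066 and Nrp2 at 0.018, and Nrp2 lay between -0.12 and 0.0021 with 1 array left out. The cause was not tested. That setting and the microglia covariate were chosen after seeing the data.

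Same-numbered arrays did not deviate together throughout (correlations of 0.052, -0.13, 0.45 and 0.30), so the numbers were not taken as pairs. Control 3 and control 4 did go best with the VEGF-labelled array of their own number, control 1 and control 2 did not. With the replicate number as a block 0 members and 0 genes passed, and Vegfc stayed at 0.34 (adjusted p = 0.167 in limma). The block gave Kdr an SE of 0.041 against 0.108 without it, and Pgf 0.053 against 0.0842. For Flt1 and Nrp2 the SE was slightly larger with the block. At an unadjusted p under 0.05 Vegfd joined Vegfc without control 3, and Nrp1 joined it without VEGF 2 and without the arrays of a female pattern. Signal over background is unknown, since centred values keep no brightness.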

Other observations

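Vegfb had an SD 17.3 times as large in the VEGF-labelled arrays as in control. A ratio at least as large was found in 18 of 19938 genes, or 0.0903%. The ratio had a median of 1.36 over all genes, and 68.5% of genes and 7 of the 10 members were more spread in the VEGF-labelled arrays. Vegfb was singled out after its values were seen, and no test was run.

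Vegfd is on the X chromosome. It was lowest in the 3 arrays with a female pattern, between -0.074 and -0.062, against -0.042 to 0.088 in the other 5. The same order was found in 5.53% of all genes and in 26 of 742 X-linked genes (3.50%), and in 1 of the 10 members. Between the groups Vegfd differed by -0.080 with all 8 arrays, by -0.057 with the sex index as a covariate and by -0.080 without the arrays with a female pattern. This order too was noticed after the values were seen.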
